A study of Mus musculus with 8 samples.

Results

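Long intergenic noncoding RNAs (lincRNAs) are transcripts that an annotation places between protein-coding genes and takes to carry no long reading frame. The genes described here are those in the table of normalized reads that GENCODE M21 types as lincRNA and places on an autosome, without the imprinted H19, Meg3, Rian and Mirg. The rule gave 186 genes of 13637 in the table, out of 5209 autosomal lincRNA genes in that annotation. The table had held 198 lincRNA genes, of which 9 lay on the X chromosome and 3 were the imprinted ones. RefSeq had an entry for 118 of the 186 and typed 102 of them as lncRNA, 10 as protein-coding, 3 as pseudogene and 3 as transcribed pseudogene.

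RNA-seq of polyA RNA was done on mouse hearts at embryonic day 9.5. Hearts of Bmp2GOF;Nkx2.5-Cre embryos (GOF, gain of function of the growth factor gene Bmp2) gave 4 libraries and those of wild-type embryos (WT) another 4. Nkx2.5-Cre is a recombinase driven from a gene of early heart precursors, and the labels do not say in which cells Bmp2 was raised or whether a sample was a single heart or a pool. The spread behind the p-values below is that among these libraries and could be partly technical.

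Nuclear lincRNAs such as Malat1 and Neat1 build or sit in nuclear bodies, speckles and paraspeckles. Other lincRNA genes are known mainly for what their introns carry, since small nucleolar RNAs (snoRNAs) and microRNAs are cut from them while the spliced host RNA is often short-lived. Many lincRNA genes start back to back with a coding gene, from a shared promoter region.

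The genotype was visible in Bmp2 itself, which stood at 95.8, 102, 108 and 91.1 normalized reads in GOF 1 to 4 and at 61.7, 59.6, 54.4 and 49.5 in WT 1 to 4. The tissue label fitted the markers, as all 10 heart markers were in the table with a summed level of 32933 to 38885 in GOF and 31160 to 35212 in WT. Neural tube markers summed to 18.1 to 20.9 in GOF and 17.4 to 23.2 in WT (4 of 5 in the table), and foregut markers to 3.89 to 12.1 and 1.82 to 41.9 (3 of 5). The 5 erythroid markers varied widely within each group, from 2065 to 11596 in GOF and from 2060 to 5864 in WT, and the 5 endocardial markers summed to 416 to 528 in GOF and 558 to 606 in WT, with 3 of them called lower, 1 (Pecam1) higher and 1 not passed. All 22 hypoxia and glycolysis genes of a list were higher in GOF, and reads from the mitochondrial chromosome were lower, 12298 to 13849 against 30891 to 32621. The part of any of these in the lincRNA values was not tested, and in bulk hearts fewer cells of a type and less RNA per cell cannot be told apart. GOF 1, which had the highest erythroid sum, stood apart from the other GOF samples on the second principal component. Without it, 42 lincRNA genes were called higher and 20 lower, against 48 and 21 with it.

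The sequences shown first are promoters of 3 lincRNA genes with large rises, 1700001L05Rik, Dubr and Malat1, and that of the snoRNA host Snhg12. Each runs from 250 bases before to 50 bases after the RefSeq start (RefSeq, GRCm38.p6), in the direction of transcription. Capitals mark ACGTG read on either strand, the core letters of hypoxia response elements, which is also contained in the E-box CACGTG. In Snhg12 they mark a CCTTT at the start site, the kind of pyrimidine run that begins RNAs with a terminal oligopyrimidine (TOP) tract. They lie at chr15:83367248-83367547 (minus strand), chr16:50732724-50733023 (minus), chr19:5802623-5802922 (minus) and chr4:132308428-132308727 (plus).
1700001L05Rik: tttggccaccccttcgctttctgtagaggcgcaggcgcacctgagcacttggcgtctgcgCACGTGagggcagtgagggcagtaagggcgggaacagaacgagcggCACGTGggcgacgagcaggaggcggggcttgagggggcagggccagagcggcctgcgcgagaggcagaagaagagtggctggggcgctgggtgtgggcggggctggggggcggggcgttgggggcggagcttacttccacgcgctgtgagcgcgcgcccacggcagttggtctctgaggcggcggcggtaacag
Dubr: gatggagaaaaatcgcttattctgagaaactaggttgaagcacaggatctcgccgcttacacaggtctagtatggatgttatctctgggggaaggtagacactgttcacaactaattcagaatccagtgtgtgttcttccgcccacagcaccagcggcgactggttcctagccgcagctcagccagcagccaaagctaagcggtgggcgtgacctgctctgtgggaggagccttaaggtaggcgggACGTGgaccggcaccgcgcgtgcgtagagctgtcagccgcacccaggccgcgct
Malat1: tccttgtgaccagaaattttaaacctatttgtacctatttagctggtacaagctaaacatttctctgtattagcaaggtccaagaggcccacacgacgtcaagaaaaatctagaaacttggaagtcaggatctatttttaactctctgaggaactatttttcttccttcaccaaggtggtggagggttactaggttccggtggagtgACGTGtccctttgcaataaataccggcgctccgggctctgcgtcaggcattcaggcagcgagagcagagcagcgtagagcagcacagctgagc
Snhg12: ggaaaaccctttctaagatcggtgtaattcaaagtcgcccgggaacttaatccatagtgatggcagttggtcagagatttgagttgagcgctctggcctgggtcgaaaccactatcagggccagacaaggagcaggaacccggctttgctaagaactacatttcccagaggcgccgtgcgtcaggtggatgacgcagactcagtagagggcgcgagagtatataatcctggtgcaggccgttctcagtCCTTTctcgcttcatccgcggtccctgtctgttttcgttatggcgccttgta

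Of the 186 genes, 75 had a promoter in that table. ACGTG was found in 23 of the 75 (30.7%), next to 29.4% of the 10312 promoters of all genes in the table. Among lincRNA genes called higher in GOF it was in 11 of 25 (44.0%), next to 34.6% of the promoters of all genes called higher. Among those at least 2-fold higher it was in 4 of 6, and these were the 3 genes shown and Gm2694, next to 40.0% for all genes with such a rise. Gm2694, which is also among those 11, was in the table only through its GOF values and could differ in that direction only. CACGTG was in 9 of 75 (12%), next to 11.8% of all. The motif TGATGNAAN, a core of amino acid response elements, was in 0 of 75 on either strand, next to 2.64% of all promoters. A pyrimidine run (CTTTT, or with a final C in its place CTTTC, or else CCTTT) within 10 bases of the start on the sense strand was in 9 of 75 (12%), in 2 of 11 listed snoRNA hosts (18.2%) and in 5.81% of all promoters. Such matches describe letters in these windows and were not tested. Neat1, Pvt1, Trp53cor1, Snhg6 and Gm26825 were among the genes with no entry.

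As a class, lincRNA genes were low in these hearts: their median level was 2.58 normalized reads over the 8 samples, against 27.3 for all genes, and 137 of the 186 had a mean under 5. A normalized read is the deposited unit, and 3 sequenced reads corresponded to 0.170 to 0.242 of it, depending on the library. At an adjusted p under 0.05 in limma, 48 lincRNA genes were higher in GOF and 21 lower (37.1% of 186), while 56.3% of all genes in the table were called, 28.2% higher and 28.2% lower. Quantile normalization changed the split to 34 higher and 26 lower, so that 56.7% of called lincRNA genes were higher in place of 69.6%. The same share over all called genes went from 49.99% to 43.3%. The 4 GOF and 4 WT values did not overlap for 51 lincRNA genes (27.4%), and for 50.9% of all genes.

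The share called followed the level. Of the 49 lincRNA genes with a mean of at least 5, 19 were higher and 11 lower (61.2%), next to 60.6% of all genes at that level. Of the 137 below it, 29 were higher and 10 lower (28.5%), next to 37.4% of all genes there. The direction of the calls shifted with level too. Below that mean, 74.4% of called lincRNA genes and 62.7% of all called genes were higher. At or above it the shares were 63.3% and 48.2%. The median standard error of the log2 change was 0.15 for lincRNA genes and 0.07 for all genes. The median log2 change, GOF minus WT on log2(value + 1), was 0.12 for lincRNA genes and -0.00 for all genes, and 0.01 and -0.05 under quantile normalization. Other noncoding types in the table were called at similar rates, 29.3% of 157 antisense genes and 34.3% of 137 genes typed processed transcript. Of those called, 65.2% and 68.1% were higher, so a majority of rises was not particular to lincRNA genes.

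At least 2-fold rises were called for 10 lincRNA genes (5.38%), next to 3.58% of all genes, and at least 2-fold falls for 0, next to 0.968%. The table keeps genes with at least 1 normalized read in at least 4 columns. The 5 genes F630040K05Rik, Gm2694, Gm11110, Gm2061 and E130102H24Rik reached 1 in every GOF and no WT sample, so they were in the table only through GOF and could differ in that direction only. No lincRNA gene reached 1 in every WT and no GOF sample. Without these 5, 43 lincRNA genes were higher and 21 lower, and 6 rose at least 2-fold. Genes that only 1 group brought past the filter, while some samples of the other also reached 1, remain in these counts. Gm26532 is such a gene, through GOF. The summed level of all lincRNA genes without Gm42418 was 2323 to 2370 in GOF and 2152 to 2400 in WT, so the groups overlapped.

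**Figure D1:**
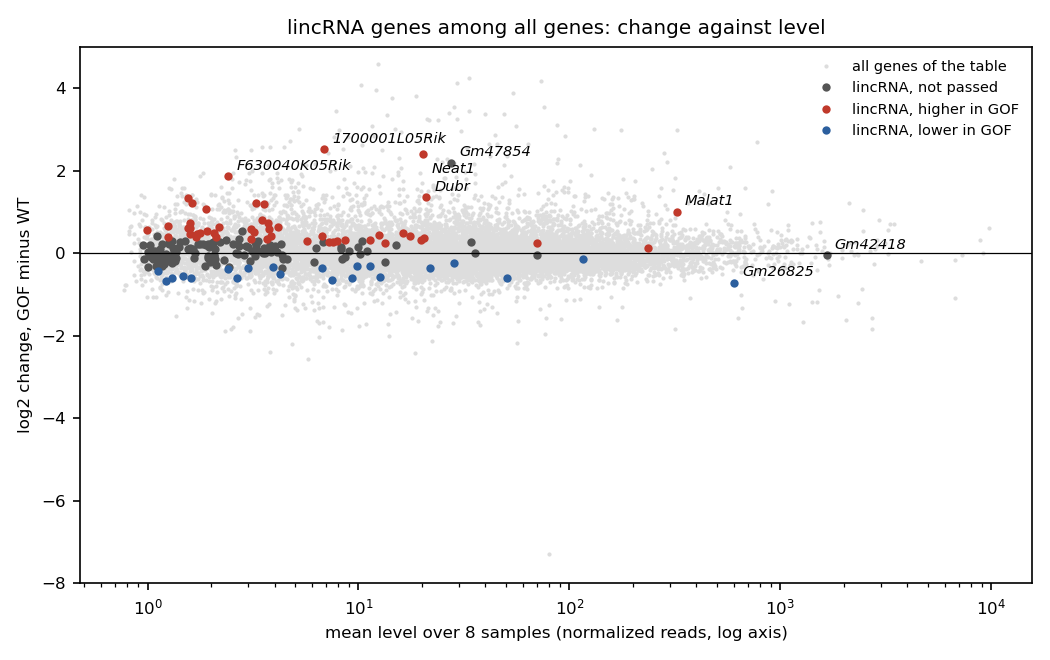
Log2 change (GOF minus WT, on log2(value + 1), y axis) against the mean level over 8 samples (normalized reads, log x axis) for all 13637 genes (light grey) and the 186 lincRNA genes (red, called higher; blue, called lower; dark grey, not passed). The largest called lincRNA rises, 1700001L05Rik and Neat1, lie above 2, and the lowest lincRNA gene, Gm26825, is at -0.71.

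The genes of the nuclear-body RNAs Neat1 and Malat1 both rose. Their values are per gene, come from polyA RNA and do not separate isoforms. Neat1 (chromosome 19, 5824708 to 5845478, minus strand) is the scaffold of paraspeckles. It stood at 31.9, 36.4, 34.3 and 36.2 normalized reads in GOF 1 to 4 and at 5.89, 6.30, 6.26 and 4.59 in WT 1 to 4. Every GOF sample was far above every WT sample, and the log2 change was 2.41 (SE 0.09, adjusted p = 1.14e-11). Malat1 (chromosome 19, 5795690 to 5802672, minus strand), its neighbour in the genome and a nuclear speckle RNA, was one of the most abundant lincRNAs. Its levels were 349, 472, 481 and 419 in GOF and 261, 158, 226 and 215 in WT. The groups did not overlap, with GOF 1 the lowest of its group and WT 1 the highest of its own, and the log2 change was 1.01 (SE 0.18, adjusted p = 0.00299).

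1700001L05Rik had the largest called rise. This gene on chromosome 15 (83353847 to 83367282, minus strand), for which no role is given here, was at 11.4, 14.3, 13.1 and 10.6 normalized reads in GOF. In WT it was at 1.45, 1.29, 1.25 and 1.29, close to the lower end of the table. The log2 change was 2.52 (SE 0.12, adjusted p = 9.96e-11), and its promoter above holds 2 copies of CACGTG. Dubr (chromosome 16, 50719294 to 50732773, minus strand), known in mouse muscle cells as an RNA that promotes myoblast differentiation and acts on the neighbouring Dppa2, was at 29.1, 34.5, 29.7 and 29.3 in GOF and at 13.5, 10.8, 11.7 and 9.44 in WT. Its lowest GOF value was above its highest WT value, and the log2 change was 1.36 (SE 0.09, adjusted p = 1.07e-08).

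The other 6 of the 10 largest rises among genes with a mean of at least 5 were smaller, from 0.33 to 0.50 on the log2 scale. 5031425E22Rik led them, at 19.2, 18.95, 20.6 and 18.5 in GOF and 12.4, 12.6, 14.6 and 13.8 in WT (log2 change 0.50, SE 0.07, adjusted p = 3.89e-05). 5430416N02Rik was at 13.1 to 15.7 in GOF and 9.67 to 10.8 in WT (0.45), and Gm17275 at 6.39 to 8.97 and 4.49 to 6.13 (0.41). 5033428I22Rik, on chromosome 8 beside Hand2, a transcription factor of ventricle and limb development, was at 11.9 to 13.7 in GOF and 9.14 to 10.9 in WT (0.33, adjusted p = 0.00368). Hand2, whose start is 11135 bases away, went the other way, with a log2 change of -0.56. Snhg12 and Snhg6 completed the set.

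**Figure D2:**
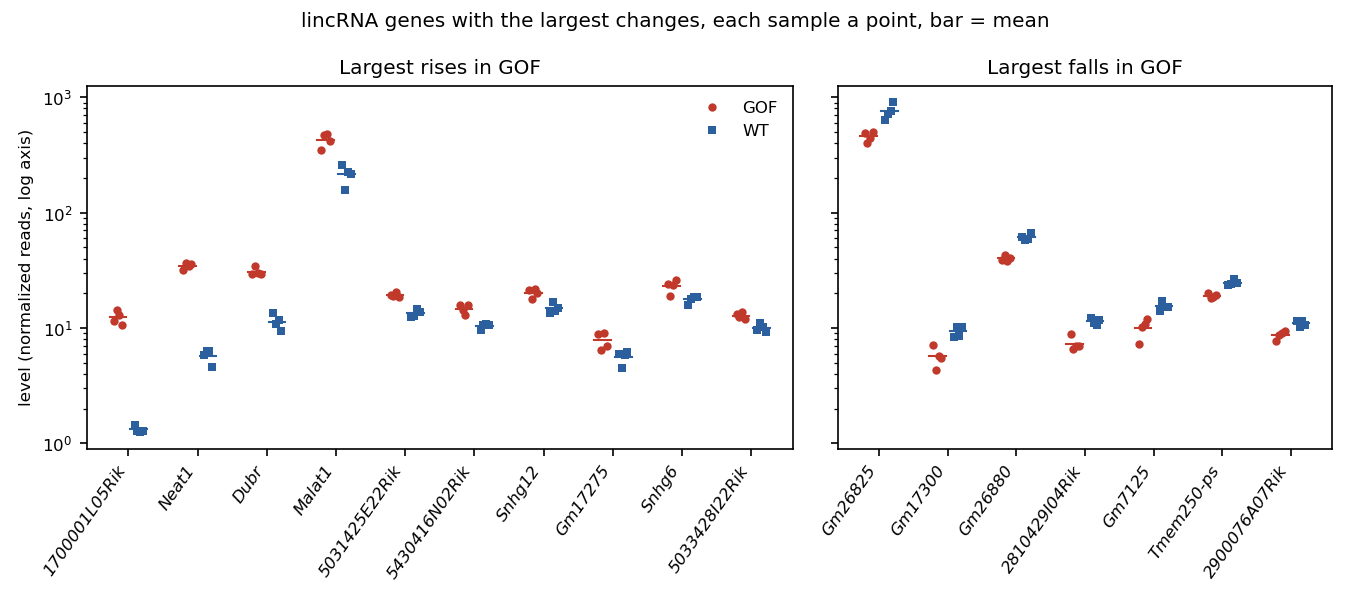
Level (normalized reads, log y axis) in each of the 4 GOF samples (red circles) and 4 WT samples (blue squares) of the 10 largest rises and 7 largest falls among lincRNA genes that passed the test without overlap and had a mean of at least 5. Bars are group means. Neat1 stands at 31.9 to 36.4 in GOF and 4.59 to 6.30 in WT, and Gm26825 at 402 to 496 and 634 to 902.

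A further 6 genes at low levels were at least 2-fold higher, and they were chosen here after their values were seen. For 4 of them, F630040K05Rik, Gm2694, Gm11110 and Gm2061, the filter of the table fixed the direction, and their values are a description only. F630040K05Rik (chromosome 17) was at 3.63, 5.20, 4.20 and 4.30 in GOF and 0.976, 0.345, 0.282 and 0.331 in WT, with WT 1 above the other WT samples (log2 change 1.86). Gm2694 (1.33), Gm11110 (1.22) and Gm2061 (1.08) were, like it, below 1 in every WT sample. Gdap10 was at 5.87, 5.09, 5.20 and 3.75 in GOF and 1.45, 1.16, 2.14 and 1.51 in WT (log2 change 1.22), and its start is 2327 bases from that of Nampt, an enzyme of NAD synthesis, which rose by 1.27. Gm12866 was at 4.43 to 6.22 in GOF and 1.29 to 2.30 in WT (log2 change 1.196). Its nearest coding start, 39600 bases away, is that of the glucose transporter gene Slc2a1, whose log2 change was 1.21.

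Lists of lincRNAs with known roles gave further changes. Trp53cor1 (lincRNA-p21), an RNA induced by p53 in mouse cells, was at 6.55, 6.05, 4.35 and 4.23 in GOF and 2.99, 2.60, 3.11 and 3.27 in WT (log2 change 0.64, SE 0.14, adjusted p = 0.00106). Its neighbour Cdkn1a, the cell-cycle inhibitor p21, whose start is 11797 bases away, had a log2 change of 1.98. Pvt1, a long gene downstream of Myc, was at 3.29, 2.24, 2.58 and 3.40 in GOF and 1.63, 1.10, 1.57 and 1.58 in WT (0.65, SE 0.15, adjusted p = 0.00148), and Myc had a log2 change of 0.69. For Lockd, chosen after its values were seen, the neighbour Cdkn1b, another cell-cycle inhibitor, had a log2 change of 0.90, while Lockd was at 4.12 to 4.58 in GOF and 2.92 to 4.72 in WT and did not pass (0.19, adjusted p = 0.241). Bvht (Braveheart), needed in mouse embryonic stem cells to enter the heart lineage, was at 3.36, 3.44, 2.58 and 3.34 in GOF and 2.45, 2.98, 2.62 and 2.61 in WT. Its groups overlapped and it did not pass (0.19, SE 0.12, adjusted p = 0.224).

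The snoRNA hosts moved by less. The list held 5 lincRNA genes in the table, of which 3 were higher in GOF and 0 lower (28.2% of all genes were higher), with a median log2 change of 0.27. Snhg12 (chromosome 4, 132308623 to 132311024, plus strand) was at 21.2, 17.7, 21.7 and 20.2 in GOF and 13.5, 16.7, 14.1 and 15.02 in WT. Every GOF value was above every WT value, and the log2 change was 0.42 (SE 0.08, adjusted p = 0.000515). Snhg6 (chromosome 1, 9941959 to 9944118, minus strand) was at 24.1, 18.9, 23.4 and 26.0 in GOF and 15.9, 18.0, 18.5 and 18.4 in WT, without overlap but with GOF 2 just above the WT samples (0.36, SE 0.09, adjusted p = 0.00293). Snhg18 was at 8.18, 7.13, 8.90 and 7.74 in GOF and 6.59, 6.74, 5.29 and 7.23 in WT, with overlap (0.27, SE 0.11, adjusted p = 0.0458). It did not pass without GOF 1, GOF 3, GOF 4, WT 1, WT 2 or WT 3, with adjusted p from 0.0619 to 0.154, nor under quantile normalization (0.139).

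Epb41l4aos (0.27, adjusted p = 0.0668) and Snhg20 (-0.02, adjusted p = 0.908) did not pass. Epb41l4aos was at 7.84, 6.28, 7.97 and 7.94 in GOF and 6.12, 4.74, 7.14 and 6.28 in WT, and it passed without GOF 2 (0.0291) or WT 3 (0.034). Of 8 hosts on the list that GENCODE types otherwise, 3 were higher and 1 lower in GOF. Over all 13 hosts in the table, 6 were higher and 1 lower (53.8% called, next to 56.3% of all genes). Their median log2 change was 0.16 against -0.00 for all genes. The fall was that of Snhg3 (-0.44). Gas5, the best known growth-arrest host, was not called, at 121 to 146 in GOF and 121 to 126 in WT. By annotation, 8 lincRNA genes hold a snoRNA, of which 3 were higher and 3 lower (75.0% called, next to 56.3% of all genes): 2900076A07Rik, 2700038G22Rik and 9430037G07Rik were the lower ones. 2700038G22Rik did not pass without GOF 3, GOF 4, WT 2 or WT 4, nor did 9430037G07Rik without WT 2 or WT 4.

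**Figure D3:**
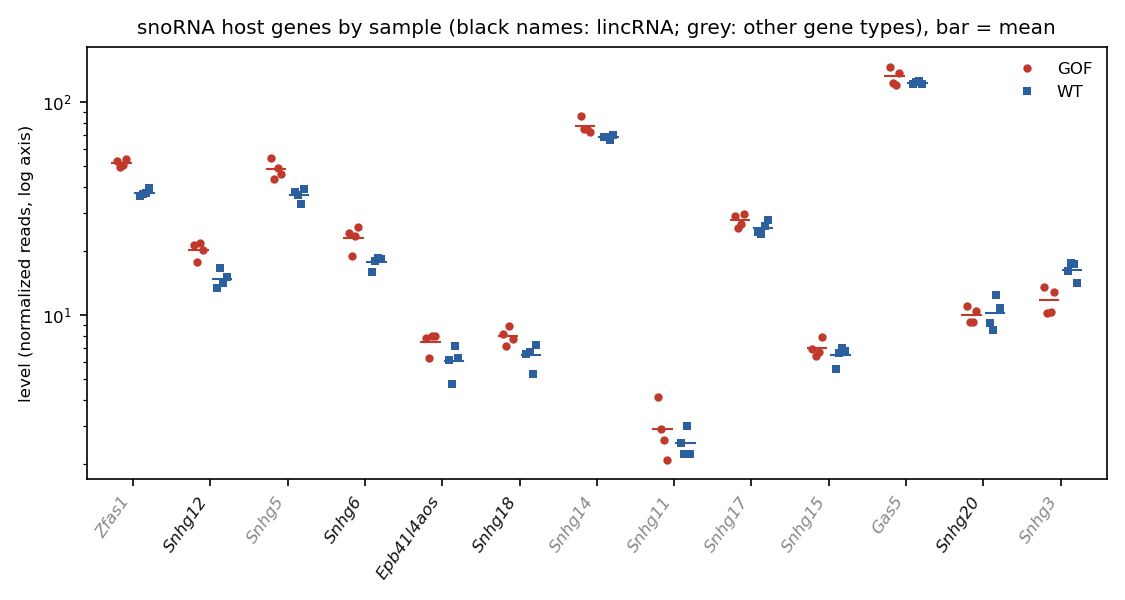
Level (normalized reads, log y axis) of the 13 snoRNA host genes of the list that are in the table, in 4 GOF (red circles) and 4 WT samples (blue squares), ordered by log2 change, with lincRNA genes named in black. Bars are group means. Snhg12 stands at 17.7 to 21.7 in GOF and 13.5 to 16.7 in WT, and the last gene, Snhg3, was lower in GOF.

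By annotation 6 lincRNA genes contain a whole microRNA hairpin on their strand. Of these 1 was called higher and 2 lower (3 of 6 called, next to 56.3% of all genes), the lower ones being Mir17hg and 2900076A07Rik, and the higher one, E130102H24Rik, was in the table only through GOF. Mir17hg, the host of the miR-17 to miR-92a cluster, which mouse embryos need for normal heart and lung growth, was at 29.2, 24.1, 25.1 and 25.0 in GOF and 30.4, 26.4, 32.5 and 34.0 in WT. It was lower by test but the groups overlapped (-0.24, SE 0.08, adjusted p = 0.0169), and it did not pass without WT 3 (0.0531) or WT 4 (0.0649). Gm26532, which begins at the last bases of the Mir24-2 hairpin, was at 1.94, 1.85, 2.81 and 2.30 in GOF and 0.976, 0.847, 0.686 and 1.28 in WT (0.73, adjusted p = 0.000883). Among WT samples only WT 4 reached 1, so the WT values of Gm26532 alone would not have met the filter of the table. E130102H24Rik, which holds Mir101a, was at 1.73, 1.85, 1.502 and 1.96 in GOF and 0.858, 0.659, 0.605 and 0.845 in WT (0.66). Gm26532 and E130102H24Rik were chosen after their values were seen. The start of Ak4, an adenylate kinase gene with a log2 change of 0.99, is 62542 bases from that of E130102H24Rik.

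The mature microRNAs of Mir17hg and E130102H24Rik are shown because they are what the host transcripts are processed into, but polyA libraries of this kind do not measure them. Sequences are from RefSeq (GRCm38.p6), and capitals mark the seed, bases 2 to 8. miR-17-5p and miR-20a-5p share the seed AAAGUGC, and miR-19a-3p and miR-19b-3p share GUGCAAA.
mmu-miR-17-5p: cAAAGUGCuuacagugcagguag
mmu-miR-20a-5p: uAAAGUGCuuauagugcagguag
mmu-miR-18a-5p: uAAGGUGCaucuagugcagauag
mmu-miR-19a-3p: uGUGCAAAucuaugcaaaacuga
mmu-miR-19b-3p: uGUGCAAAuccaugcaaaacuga
mmu-miR-92a-3p: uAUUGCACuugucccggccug
mmu-miR-101a-3p: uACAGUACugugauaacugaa

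The let-7 host 6720427I07Rik was at 9.69 to 11.2 in GOF and 7.54 to 10.3 in WT and did not pass (0.14, adjusted p = 0.24). Mir670hg was at 4.04, 3.27, 2.58 and 4.99 in GOF and 5.89, 4.86, 4.48 and 4.66 in WT (-0.36, adjusted p = 0.0528). It passed under quantile normalization (0.0118), without mitochondrial genes (0.0277), and without GOF 1 (0.0419) or GOF 4 (0.0124).

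Pairs that start head to head with a coding gene, with starts within 1 kb on opposite strands, numbered 45, and the coding partner was in the table for 42. Of those 42, 10 lincRNA genes and 28 partners were called (66.7% of partners, next to 57.9% of all protein-coding genes). Both were called in 7 pairs, with 5 pairs higher in both genes, 0 lower in both and 2 opposite. In 2 of the 5, the lincRNA gene (Gm11110, Gm2061) was in the table only through GOF, so the balance of these counts is partly set by the filter. Gm11110 and Tnfsf9, a ligand of the TNF family, had log2 changes of 1.22 and 1.41, and Gm2061 and Slc30a10, a manganese transporter, of 1.08 and 1.15. Both lincRNA genes overlap exons of their partner on the opposite strand, over 8.95% and 19.3% of their bases, and the reads there cannot be told apart without strand. Gm17501 and Ccn1, a matrix-bound signalling protein, had changes of 0.61 and 1.48. 5031425E22Rik and Kmt2e had 0.50 and 0.63, and C030037D09Rik and Msi2, an RNA-binding protein, 0.31 and 0.44. C030037D09Rik did not pass without GOF 2, GOF 3, GOF 4, WT 1, WT 2 or WT 4 (adjusted p 0.0642 to 0.153). Snhg18 and Sema5a, a guidance molecule gene, moved apart (0.27 and -0.41), as did 4930429F24Rik and Tmem30a (-0.34 and 0.16). 4930429F24Rik did not pass without WT 2 (0.0527).

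**Figure D4:**
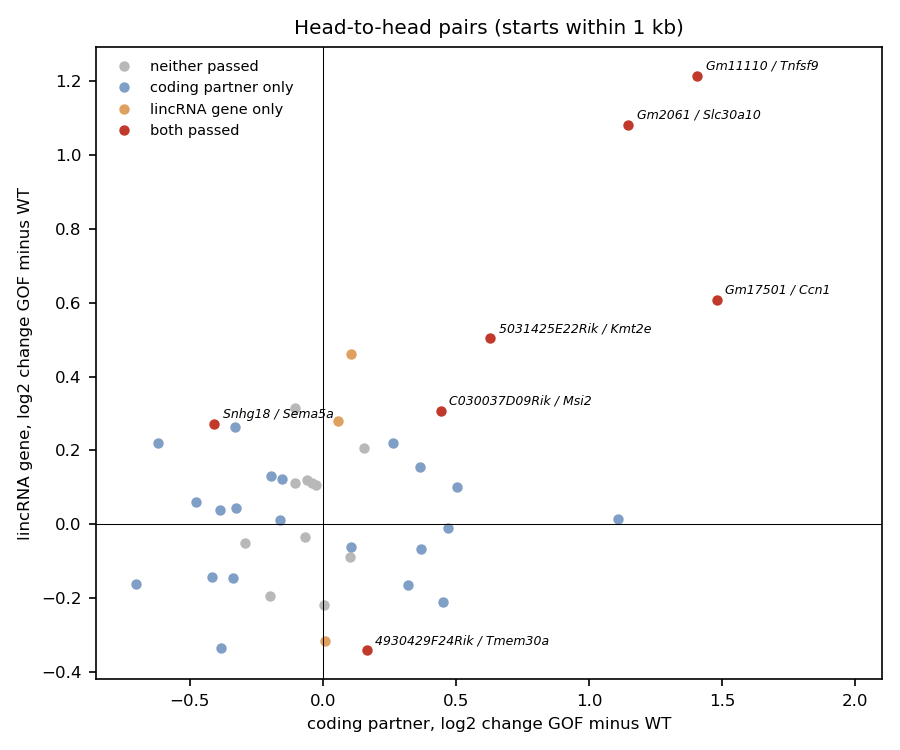
Log2 change (GOF minus WT) of the lincRNA gene (y axis) against that of its coding partner (x axis) for the 42 head-to-head pairs with both genes in the table, coloured by which of the pair passed the test. The 7 red points are pairs in which both passed: 5 lie in the upper right and 2 in quadrants of opposite sign.

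Taking the nearest coding start within 100 kb gave 148 pairs in the table. The coding gene was called in 64.2% of them, next to 57.9% of all protein-coding genes. Both genes were called in 41 pairs, with 21 higher in both, 4 lower in both and 16 opposite. Some of these lincRNA genes are those in the table only through GOF. Head-to-head lincRNA genes were called in 11 of 45 cases (24.4%), 9 higher and 2 lower, and the other 141 in 41.1%. The difference between these shares was not tested. Of all genes 56.3% were called, and 37.4% of those with a mean under 5. The head-to-head lincRNA genes also had the lower median level, 1.71 against 2.99 normalized reads, and the part of level in this difference was not tested.

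The 7 falls that passed without overlap at a mean of at least 5 ran from -0.30 to -0.71 on the log2 scale, and none reached 2-fold. Gm26825 (chromosome 5, 5781530 to 5783636, plus strand) was at 486, 402, 446 and 496 in GOF and 634, 719, 761 and 902 in WT (log2 change -0.71, SE 0.11, adjusted p = 0.000793). Its exons lie opposite Gm15459, a processed pseudogene, over 91.8% of their bases, and Gm15459 had a log2 change of -0.74. The same bases match, with 99.6% identity over 1940 bases, the coding gene Hspa8, a constitutive heat shock chaperone on chromosome 9. Hspa8 was at 966 to 1045 in GOF and 916 to 1430 in WT (log2 change -0.28, adjusted p = 0.129). The sources do not say whether strand was used in counting, so reads of these 3 genes cannot be told apart with certainty.

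Gm26880 (chromosome 4, 146509094 to 146511764, minus strand) was at 38.7, 43.1, 38.2 and 40.8 in GOF and 60.9, 58.0, 59.2 and 66.1 in WT, a clear gap between the groups (-0.59, SE 0.06, adjusted p = 3.63e-07), and it shares a near-identical stretch with 7 other genes. Gm17300 was at 7.09, 4.29, 5.74 and 5.54 in GOF and 8.37, 10.1, 8.60 and 10.3 in WT (-0.64). It lies opposite Rcc1, a gene for a regulator of nuclear transport, and the snoRNA host Snhg3, whose log2 changes were -0.65 and -0.44. Gm7125, whose 95.3% identity with the chromatin gene Hmgn2 covers 279 aligned bases, was at 7.30, 10.1, 10.9 and 11.9 in GOF and 14.0, 17.2, 15.2 and 15.1 in WT (-0.58), and Hmgn2 had a log2 change of -0.39. The processed pseudogene Gm10182, 97.4% identical to Gm7125 over 273 aligned bases, had a log2 change of -0.55. 2810429I04Rik was at 6.50 to 8.79 in GOF and 10.6 to 12.2 in WT (-0.59), Tmem250-ps at 18.0 to 20.3 and 23.6 to 26.8 (-0.35), and 2900076A07Rik at 7.77 to 9.32 and 10.1 to 11.6 (-0.30). Over 496 aligned bases 2810429I04Rik is 96.6% identical to the lincRNA gene Gm36548, which is not in the table.

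An exon overlap on the opposite strand was annotated for 60 lincRNA genes, giving 48 pairs with both genes in the table. The lincRNA gene was called in 13 of these pairs and the other gene in 29. Of the 60 lincRNA genes 36.7% were called, next to 56.3% of all genes. Both were called in 11, with 6 pairs higher, 3 lower and 2 opposite. The higher pairs include those of Gm11110 and Gm2061, which were in the table only through GOF. The lower pairs count Gm17300 against both Rcc1 and Snhg3, and A930029G22Rik and C030034I22Rik were paired in both directions. Strand use in counting is not known, so reads over the shared bases of a pair cannot be told apart. Gm17275 rose (0.41) while H3f3a, opposite to it, had a log2 change of -0.22. Gm26751 lies wholly opposite Nynrin and rose with it (0.25 and 0.42). A stretch of at least 200 bases with at least 95% identity elsewhere in the annotated transcripts was found for 33 of the 186. Among the 121 with no annotated exon overlap, 31 were higher and 15 lower (38.0% called), and of the 65 with an overlap 35.4% were called, next to 56.3% of all genes.

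The 5 highest lincRNA genes by mean level were Gm42418, Gm26825, Malat1, 1700020I14Rik and Gm26905. Per kilobase of exon, Gm42418 stood at 903 normalized reads, Gm26825 at 299 and Malat1 at 46.2. Gm42418, which RefSeq names Rn18s-rs5, a repeat related to 18S ribosomal RNA, was at 1574, 1211, 2158 and 1364 in GOF and 3121, 1236, 1302 and 1267 in WT, so WT 1 alone was high (log2 change -0.05, SE 0.37, adjusted p = 0.929). Its neighbour Gm26917 was at 17.3, 8.15, 9.97 and 11.2 in GOF and 11.2, 6.56, 10.1 and 8.34 in WT (0.31, adjusted p = 0.293). 1700020I14Rik was at 232, 264, 247 and 246 in GOF and 234, 229, 235 and 206 in WT (0.13, adjusted p = 0.0408), and Gm26905, a gene with near-identical stretches in 112 others, at 107, 117, 112 and 106 and at 130, 125, 124 and 108 (-0.14, adjusted p = 0.0454). 1700020I14Rik did not pass without GOF 2, GOF 3, GOF 4, WT 2 or WT 4 (0.0649 to 0.158), nor Gm26905 without GOF 1, GOF 3, GOF 4, WT 1, WT 2 or WT 3 (0.064 to 0.154).

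Some genes varied widely within a group, and the next 2 were chosen after their values were seen. Gm47854 was at 51.8, 44.3, 31.2 and 36.2 in GOF and at 10.5, 16.4, 28.0 and 0.110 in WT, the last being 1 inferred read. Its groups did not overlap, yet it did not pass (log2 change 2.20, SE 1.04, adjusted p = 0.12), and without WT 4 the change was 1.19 (adjusted p = 0.0396). It shares near-identical stretches with 43 other genes, 1 of them Gapdh. Redrum, a lincRNA described in mouse erythroid cells, was at 4.52, 0.937, 0.732 and 2.58 in GOF and 1.45, 3.17, 3.03 and 3.05 in WT (-0.33, adjusted p = 0.506). The summed erythroid markers were 11596, 3293, 2065 and 7159 in the same GOF samples and 2060, 5864, 5571 and 4744 in the WT ones. In GOF the order of the 4 samples by Redrum was their order by these markers, and in WT the sample lowest in Redrum was lowest in them. The full WT order differed, since WT 4 was just above WT 3 in Redrum and below it in the markers. The relation was not tested.

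**Figure D5:**
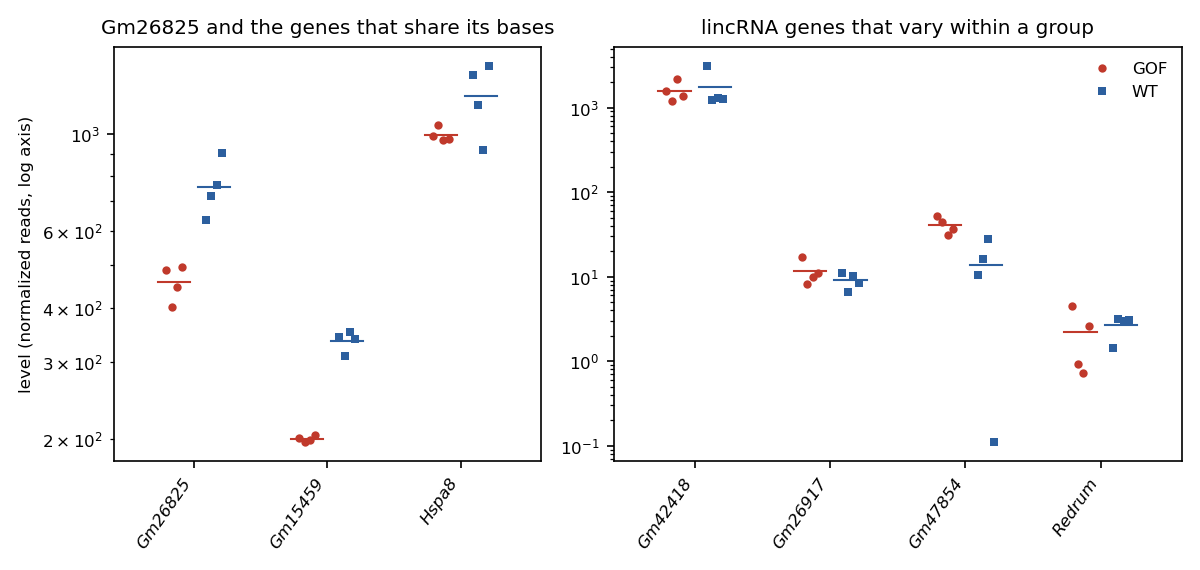
Level (normalized reads, log y axes with different ranges) in 4 GOF (red circles) and 4 WT samples (blue squares), with bars for group means. Left, Gm26825 and 2 genes that share its bases, Gm15459 and Hspa8. Right, genes with samples apart from their group, such as Gm42418 with 3121 in WT 1 and Gm47854 with 0.110 in WT 4.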

How the data were processed

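The authors deposited a table of 13637 genes by 8 samples, whose values are a normalized read signal per gene. Per the submitters' processing notes, CASAVA 1.8.2, cutadapt 1.6, FastQC and RSEM 1.2.3 were used with the build GRCm38. For the normalization, strand setting and filter, nothing is given in the sources used here. Read from the values themselves, and stated by no source, each value was a whole number of reads (within 0.01) plus 0.5, times a constant per column. Those inferred reads summed to 13182009 to 17927674 in GOF and 12287069 to 16697480 in WT. Intervals from depth cover counting error only, and no count model was fitted.

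Groups came from the genotype label. The test, on log2(value + 1), was limma 3.58.1 under R 4.3.3 (trended, robust prior, no covariate, two-sided), fitted to all genes, with Benjamini-Hochberg adjustment over 13637 genes and a threshold of 0.05. Fold changes of low genes are understated on this scale. GENCODE M21 gave types and coordinates for 13554 IDs, and 83 were not found. Near-identical stretches were found with BLAST 2.17.0. No pair of samples in a group agreed within sampling noise (chi-square per degree of freedom at least 3.49).

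The genes and lists were chosen with earlier results of these data known. Named genes are list members, the 10 largest rises and falls past the threshold without overlap at a mean of at least 5 (10 rises and 7 falls met this), the 5 highest genes and head-to-head partners. Others are said to be chosen after their values were seen. Alternatives were 2 other pseudocounts, a filter on low means, quantile normalization, rescaling without mitochondrial genes, a plain prior, a replicate block, leaving out overlapping genes and leaving out each sample.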

Additional observations from a re-analysis of the deposited data

Results flagged for a closer look

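In 9 of 98 groups of 4 samples, the highest or lowest value lay far from the others, where chance flags about 1 in 20 groups. The groups are those of the named genes, and some of these, Redrum among them, were chosen after their values were seen. The number flagged can therefore not be compared with chance. Gm42418 was at 3121 in WT 1 against 1302 for the next sample, and WT 1 was also apart for F630040K05Rik (0.976), 5430416N02Rik (9.67) and Redrum (1.45). WT 2 was low for Pvt1 (1.10). GOF 2 was high for Dubr (34.5) and 9430037G07Rik (1.16) and low for Epb41l4aos (6.28), and GOF 3 was low for Bvht (2.58).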

How the results depend on the processing

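No gene named that was called, in the fit reported or in the alternative, changed direction. Of the others, Gm42418 ranged from -0.208 to 0.279 and Snhg20 from -0.0928 to 0.0751 on the log2 scale without each sample. The 48 higher and 21 lower lincRNA genes became 20 and 12 when only genes with a mean of at least 5 were tested. That filter leaves 49 of the 186 lincRNA genes. With genes that have an exon overlap left out, 31 were higher. Leaving out each sample in turn gave 38 to 46 higher and 13 to 20 lower, with the fewest lower without WT 2. The median log2 change of 0.121 became 0.0538 with a pseudocount of 5, 0.00928 under quantile normalization and 0.0708 after rescaling without mitochondrial genes, and ranged from 0.0856 to 0.144 without each sample. That rescaling gave 38 higher and 23 lower and moved the median of all genes to -0.06. The causes were not tested. The replicate numbers did not pair the samples, since same-numbered samples correlated at -0.235, -0.061, -0.181 and 0.0476 in their deviations from the group means. With the replicate block 46 were higher and 21 lower, Snhg18 (adjusted p = 0.0782) and 1700020I14Rik (0.0559) did not pass, and Epb41l4aos (0.0436), Mir670hg (0.0456) and Gm26917 (0.0321) did. Snhg18, 1700020I14Rik and C030037D09Rik did not pass under quantile normalization or after the rescaling. With a plain prior 1700020I14Rik, Gm26905 and C030037D09Rik did not pass. Depth limits the 137 genes with a mean under 5, for which a change that was not called may lie below what these libraries can show.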
